A study of Bos taurus with 12 samples.

Results

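The genes described here are 36 macrophage and dendritic cell genes, chosen by their symbols from knowledge of these cells. Earlier results of these data were known at that choice, so counts of members beside shares of all genes are descriptive. The symbols were looked up in a count table of 13930 gene symbols from uterine lining (endometrium) of dairy cows kept on pasture. Of the 36 symbols, 32 had a row in the table and 28 had enough counts to be tested. ITGAX, MRC1, MARCO and SIGLEC1 had no row under these symbols and were not analysed here. AIF1 and the 3 chains of complement C1q, C1QA, C1QB and C1QC, were listed at 0 in all 12 libraries. Since DICER1 and COX6B1, which nearly all cells use, were also listed at 0 in every library, these zeros were not read as absence of the transcripts.

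Macrophages and dendritic cells are myeloid cells that arise from the bone marrow and populate most tissues, the uterine lining included. Macrophages engulf dying cells, microbes and debris through scavenger, Fc and complement receptors, digest them in lysosomes and kill microbes with reactive oxygen. Dendritic cells and macrophages present peptides on MHC class II molecules to T cells and add costimulatory signals. Their development depends on the transcription factor PU.1, encoded by SPI1, and macrophage survival depends on the receptor for colony stimulating factor 1, CSF1R.

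Endometrial biopsies were taken for 12 libraries of polyadenylated RNA from 4 classes of animals, 3 per class, the classes being set by the progesterone level on day 4 of the cycle. The very low class (titled ANE) lay below 0.25 ng/ml, the low class (LPP4) below 1.4, labelled in mg/dl where the others are in ng/ml, the high class (HPP4) above 2.5 ng/ml, and above 20 ng/ml lay the very high class (SO). The labels give no other treatment, genotype or age, do not explain the titles ANE and SO, and do not tell if replicates are separate cows, so p-values measure only the spread between these samples. The comparison addressed how progesterone in early diestrus goes with endometrial gene expression.

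The libraries held 3772564 to 8379489 counted reads, and levels are given as CPM, the usual unit of counts relative to the scaled library size. Lists of markers for other cells in the biopsy were scored as the mean log2 CPM of their tested members. The 13 smooth muscle markers scored 8.97 to 10.2 in the high, 8.94 to 9.998 in the very high, 4.53 to 5.66 in the low and 4.58 to 11.3 in the very low class. Very low replicate 1 stood apart with the highest smooth muscle score and the lowest epithelial score, 3.90 against 6.36 to 8.12 elsewhere. Very low replicate 2 stood apart in another way, with a summed level of 3453 CPM for 7 neutrophil markers against 75.7 to 945 CPM in the other 11 libraries. In bulk tissue, fewer cells of a type and less RNA per cell cannot be told apart.

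Most of the 28 tested genes had their highest levels in the 2 lower progesterone classes. Summed over the 28 genes, the level was 1035 to 2956 CPM in the 6 lower-class libraries and 492 to 841 CPM in the 6 upper-class ones. The class mean was highest in the very low class for 12 genes, in the low class for 15 and in the high class for 1, FCGR2B. It was lowest in the very high class for 20 genes and in the high class for 8. The shares of all tested genes for these highest and lowest class means were not computed. For 9 genes, SPI1, CD68, ITGB2, CD14, TYROBP, PILRA, GAPT, NCF4 and CTSS, each of the 6 lower-class libraries lay above each of the 6 upper-class libraries, which held for 1.87% of all tested genes. For 13 further genes 5 of the 6 lower-class libraries lay above all upper-class ones. The share of all tested genes at this looser cut was not computed. LY86, FCGR2B, CYBB, SLC11A1, HK3 and CD83 overlapped more.

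**Figure D1:**
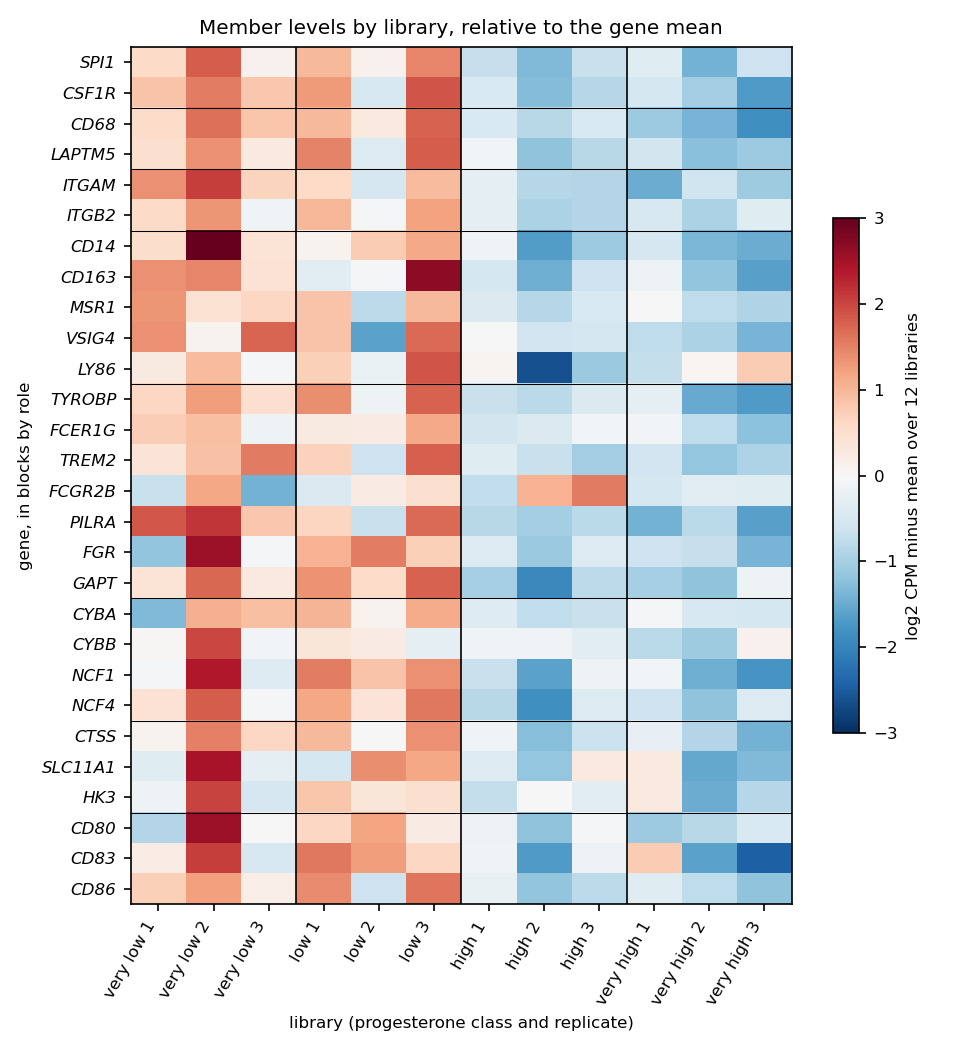
Level of each of the 28 tested genes (rows, in blocks by role) in each of the 12 libraries (columns, by progesterone class and replicate), as log2 CPM minus the gene's mean over the 12 libraries, with colours ending at -3 and 3. The 6 columns of the 2 lower classes are mostly red, those of the 2 upper classes mostly blue, and FCGR2B departs from this in high replicates 2 and 3.

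Over the 4 classes in order, 12 of 28 genes fell and none rose (edgeR quasi-likelihood test of the slope on class rank, Benjamini-Hochberg adjusted p under 0.05 over 10959 genes). Of all tested genes 4.46% fell and 3.02% rose by the same test. The median slope of the 28 was -0.73 log2 units per class step against -0.04 for all tested genes, and all 28 slopes were negative, as were 57.9% of those of all genes. The 12 genes that fell were ITGAM, PILRA, CD68, CD14, CSF1R, SPI1, TREM2, CTSS, VSIG4, TYROBP, FCER1G and MSR1. Of the 16 that did not pass, 10 had an adjusted p between 0.0505 and 0.075. The share of all tested genes past the threshold in either direction was 7.48%, and it moved as well when a library was left out. Leaving out very low replicate 1 gave 19 members and 13.2% of all genes, and leaving out very low replicate 2 gave 3 members and 1.08%. The count was 4 without high replicate 1, 2 or 3 or very high replicate 1 (1.75% to 2.51% of all genes), 2 without very high replicate 2 (0.325%) and 0 without very high replicate 3, where 1 of all tested genes passed, while the median slope stayed between -0.83 and -0.60 in all 12 such fits.

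**Figure D2:**
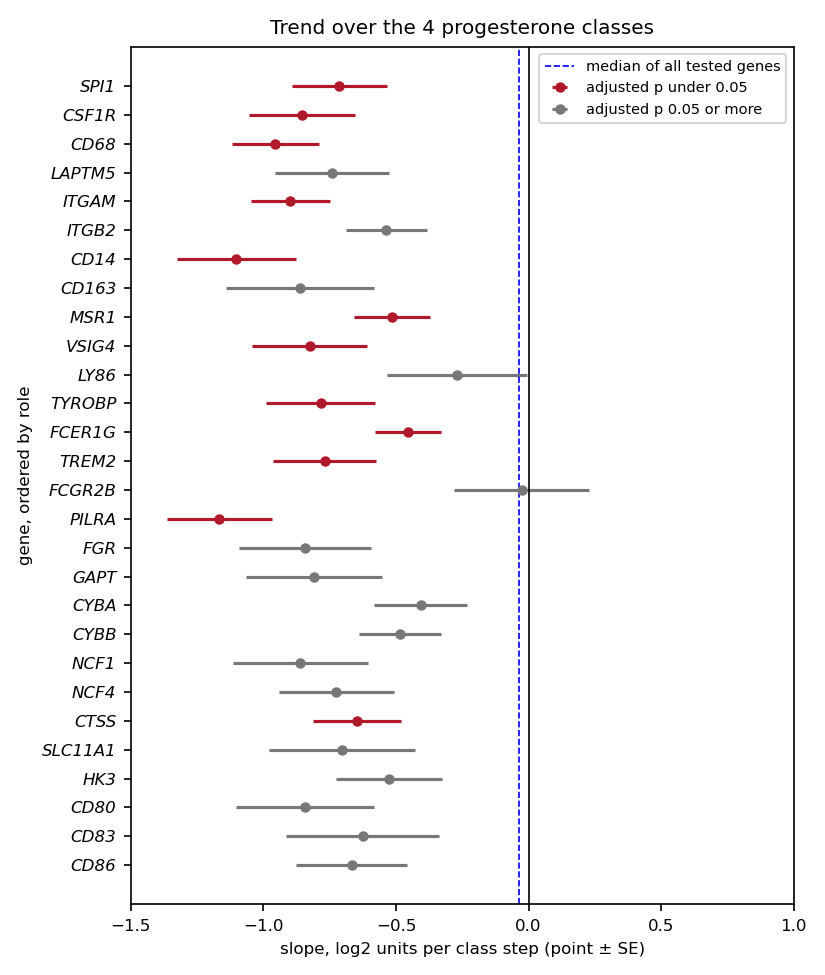
Slope of each tested gene over the class ranks 1 to 4 in log2 units per class step (point) with its standard error (bar), in red for an adjusted p under 0.05. The blue dashed line is the median of all tested genes (-0.04), and FCGR2B (-0.03) and LY86 (-0.27) lie nearest to it.

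The regulators of the lineage were both among the genes that fell. SPI1 encodes PU.1, the transcription factor that directs myeloid fate. It had 32.9, 79.0 and 24.3 CPM in the 3 very low libraries, 43.9, 24.2 and 61.4 in the low, 13.6, 8.67 and 13.9 in the high and 17.0, 8.10 and 14.2 in the very high ones. All lower-class libraries were above all upper-class ones, with very low replicate 2 highest. The slope was -0.71 ± 0.18 (SE) on the log2 scale for each class step (edgeR adjusted p = 0.0379). CSF1R, the receptor that keeps macrophages alive, had 107, 170.1 and 104 CPM in the very low, 142, 42.2 and 220.0 in the low, 42.9, 23.6 and 32.2 in the high and 41.0, 28.4 and 17.9 in the very high libraries. Low replicate 2 was just below the highest upper-class library, and the other 5 lower-class libraries were above all upper-class ones. Its slope was -0.85 ± 0.20 (SE, edgeR adjusted p = 0.0341). Without 1 library SPI1 and CSF1R each passed in only 5 of 12 fits.

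Among pan-myeloid markers CD68, a lysosomal membrane glycoprotein of macrophages, fell over the classes and between the extreme ones. It had 57.1, 123 and 68.9 CPM in the very low, 76.3, 47.7 and 133 in the low, 28.04, 21.6 and 28.2 in the high and 17.96, 14.6 and 10.7 in the very high libraries. The lower and upper classes did not overlap, and the 3 very high libraries were also below the 3 high ones. The slope was -0.95 ± 0.16 (SE, edgeR adjusted p = 0.0213). LAPTM5, a lysosomal protein of blood cells of many types, had means of 420.0 ± 177, 571 ± 345, 156 ± 65.4 and 126 ± 33.7 CPM (SD, n = 3) in rising order of class. Its slope of -0.74 ± 0.21 did not pass (edgeR adjusted p = 0.0536).

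The integrin chain ITGAM (CD11b) pairs with ITGB2 (CD18) to form complement receptor 3, which neutrophils and natural killer cells carry as well. ITGAM had 13.4, 21.9 and 8.19 CPM in the very low, 7.78, 3.45 and 9.99 in the low, 4.16, 2.68 and 2.59 in the high and 1.60, 3.24 and 2.24 in the very high libraries. Unlike CD68 it was already lower in the low than in the very low class by its means (7.07 against 14.5 CPM), though the ranges overlapped. The slope was -0.90 ± 0.15 (SE, edgeR adjusted p = 0.0208). ITGB2 had 67.3 ± 33.1 and 72.7 ± 29.5 CPM in the 2 lower and 25.7 ± 6.71 and 27.6 ± 5.70 CPM in the 2 upper classes (SD, n = 3). Its classes did not overlap between lower and upper, but its slope of -0.54 ± 0.15 just missed the threshold (edgeR adjusted p = 0.0505).

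Of the 5 tested pattern recognition and scavenger receptors 3 fell over the classes. CD14, the co-receptor that hands bacterial lipopolysaccharide to TLR4, had 28.5, 199 and 26.0 CPM in the very low, 21.1, 33.1 and 43.0 in the low, 17.98, 5.87 and 9.003 in the high and 13.6, 7.35 and 6.73 in the very high libraries. Very low replicate 2 was far above the rest, and the lower classes lay above the upper ones without it as well. The slope was -1.10 ± 0.23 (SE, edgeR adjusted p = 0.0255), and it was -0.67 and no longer past the threshold without very low replicate 2. MSR1, the class A scavenger receptor, had 25.6 ± 8.64, 20.5 ± 10.8, 9.40 ± 1.52 and 9.90 ± 3.64 CPM (SD, n = 3) in rising order of class. Its slope of -0.52 ± 0.14 had an edgeR adjusted p of 0.0478.

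VSIG4, a complement receptor of resident macrophages, fell with a slope of -0.83 ± 0.22 (SE, edgeR adjusted p = 0.0418). It had 15.9, 6.45 and 20.8 CPM in the very low, 11.1, 1.79 and 20.1 in the low, 6.04, 3.95 and 4.09 in the high and 3.43, 2.99 and 2.11 in the very high libraries. Low replicate 2 held the least of all 12. CD163, the receptor that clears haemoglobin bound to haptoglobin, had 41.5, 44.9 and 21.6 CPM in the very low and 12.7, 15.5 and 104 in the low libraries, and 11.002, 5.61 and 10.4 in the high and 14.3, 6.86 and 5.01 in the very high ones. The low class was spread by low replicate 3, and the slope of -0.86 ± 0.28 did not pass (edgeR adjusted p = 0.0736). LY86 (MD-1), the partner of the Toll-like receptor homologue CD180, had 10.7 ± 4.07, 16.4 ± 11.8, 4.21 ± 3.65 and 8.67 ± 4.40 CPM (SD, n = 3), with overlapping ranges and a slope of -0.27 ± 0.26 (edgeR adjusted p = 0.528).

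The next group signals through ITAM motifs, tyrosine motifs that recruit the kinase SYK, or counters them, and 4 of its 7 genes fell over the classes. TYROBP (DAP12), an ITAM adaptor of myeloid and natural killer cells, had 35.7, 55.2 and 32.9 CPM in the very low, 61.2, 20.9 and 79.6 in the low, 14.4, 13.0 and 17.1 in the high and 18.9, 7.85 and 6.86 in the very high libraries. The lower and upper classes did not overlap, and the slope was -0.78 ± 0.21 (SE, edgeR adjusted p = 0.0418). TREM2, a lipid-sensing receptor that signals through TYROBP, had 10.5 ± 4.39, 9.91 ± 7.65, 3.09 ± 0.787 and 2.65 ± 0.612 CPM (SD, n = 3) and a slope of -0.77 ± 0.19 (edgeR adjusted p = 0.0387). FCER1G, the common gamma chain of Fc receptors, which mast cells share, had 90.0 ± 31.2, 93.0 ± 35.1, 47.8 ± 8.25 and 39.7 ± 16.3 CPM (SD, n = 3). Its slope of -0.45 ± 0.12 was the shallowest of the 12 that passed (edgeR adjusted p = 0.0457).

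PILRA, an inhibitory receptor of myeloid cells, had the steepest slope, -1.17 ± 0.20 (SE, edgeR adjusted p = 0.0208). It had 10.3, 12.4 and 4.81 CPM in the very low, 4.22, 1.54 and 9.12 in the low, 1.34, 1.15 and 1.36 in the high and 0.801, 1.37 and 0.660 in the very high libraries, with no overlap between lower and upper classes. Its locus overlaps that of ZCWPW1, and reads of the overlap cannot be assigned here. The Src-family kinase FGR had 27.1 ± 34.1, 24.0 ± 6.9996, 6.98 ± 1.85 and 5.85 ± 1.65 CPM, and GAPT, an adaptor that binds GRB2 in B and myeloid cells, had 6.602 ± 4.12, 8.43 ± 3.44, 1.30 ± 0.589 and 1.88 ± 0.895 CPM (SD, n = 3). Neither slope passed (FGR -0.84, edgeR adjusted p = 0.0582; GAPT -0.81, 0.0684).

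FCGR2B, the inhibitory Fc gamma receptor, which B cells also carry, was the exception. It had 9.01, 32.3 and 5.20 CPM in the very low, 10.5, 17.1 and 20.1 in the low, 8.45, 30.0 and 42.8 in the high and 9.95, 11.5 and 11.1 in the very high libraries. Its 2 highest libraries were high replicate 3 and very low replicate 2, followed by high replicate 2, and the classes overlapped except that the very high ones lay close together. The slope of -0.03 ± 0.25 did not pass (edgeR adjusted p = 0.959). Fc gamma receptors resemble each other in sequence, so its count is uncertain.

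**Figure D3:**
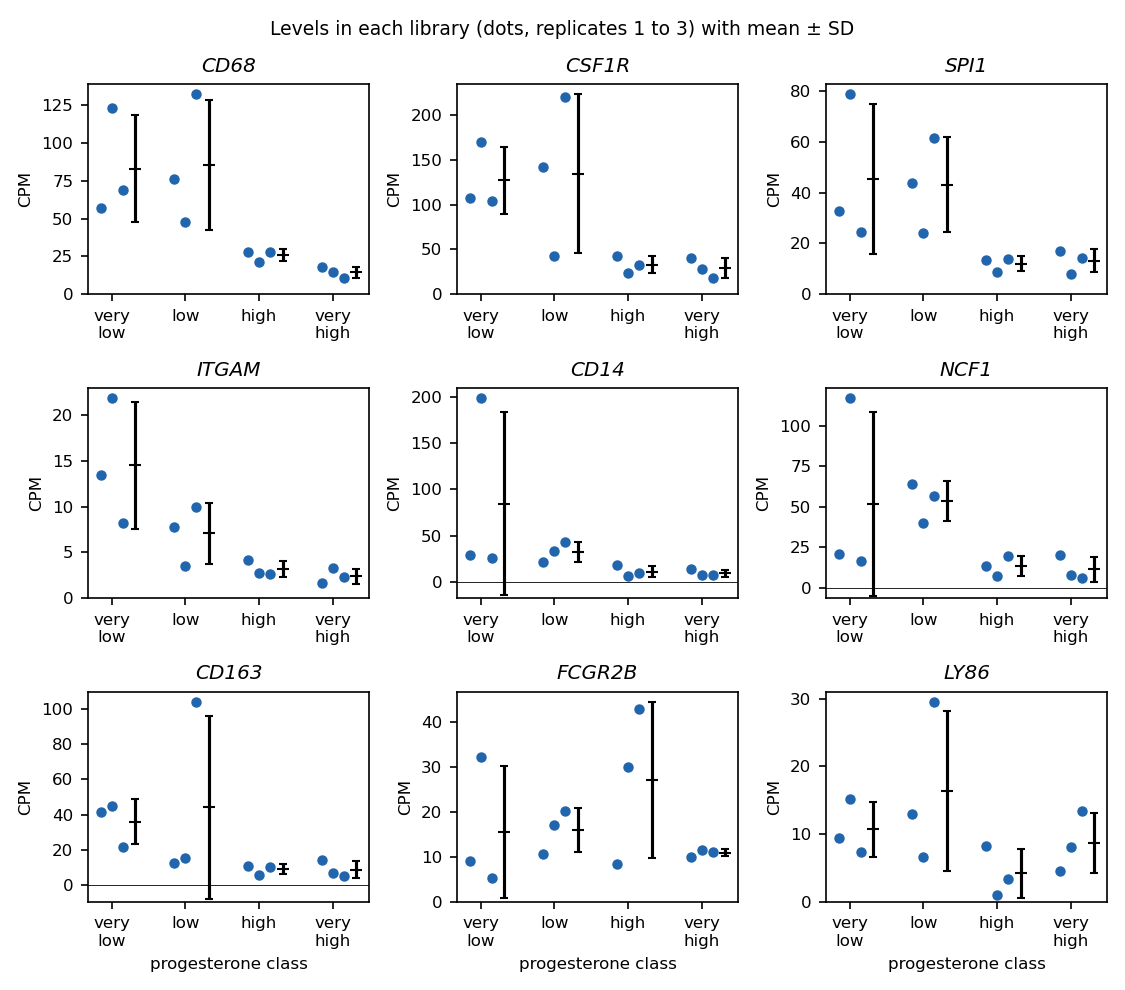
CPM of 9 genes in each library (dots, replicates 1 to 3 from left to right in each class) with the class mean and SD (bars, n = 3). CD68, SPI1 and CD14 keep the 2 lower classes above the 2 upper ones in every library, 1 library each sets the spread of CD14, NCF1 and CD163, and FCGR2B and LY86 follow no such order.

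None of the 4 subunits of the phagocyte NADPH oxidase, the enzyme that makes superoxide, passed the trend test. The regulatory subunit NCF1 (p47phox) had 20.9, 117 and 16.8 CPM in the very low, 64.2, 40.0 and 56.6 in the low, 13.7, 7.01 and 19.8 in the high and 20.5, 7.73 and 6.20 in the very high libraries. Only very low replicate 3 fell within the upper-class range, and very low replicate 2 stood above the rest (slope -0.86 ± 0.26, edgeR adjusted p = 0.0577). NCF4 (p40phox) had 17.7 ± 12.7, 19.9 ± 7.95, 4.65 ± 2.21 and 5.40 ± 1.52 CPM (SD, n = 3) and a slope of -0.72 ± 0.22 (edgeR adjusted p = 0.0584). The 2 chains of the membrane core had shallower slopes. CYBA had 169 ± 108, 203 ± 68.4, 76.6 ± 10.5 and 91.7 ± 17.6 CPM, with very low replicate 1 lowest of all at 46.0 CPM, and a slope of -0.41 ± 0.17 (edgeR adjusted p = 0.149). CYBB had 47.7 ± 42.1, 26.0 ± 5.81, 20.9 ± 1.70 and 16.8 ± 7.90 CPM, with overlapping ranges, and a slope of -0.48 ± 0.15 (edgeR adjusted p = 0.0703).

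CTSS, the lysosomal cysteine protease that trims the invariant chain off MHC class II molecules, fell over the classes. It had 242, 640.4 and 346 CPM in the very low, 439, 224 and 577 in the low, 204, 92.7 and 143 in the high and 189.6, 122 and 83.4 in the very high libraries, and the slope was -0.65 ± 0.17 (SE, edgeR adjusted p = 0.0400). The lower and upper classes did not overlap. The phagosomal metal transporter SLC11A1 (NRAMP1) and the hexokinase HK3, both also of neutrophils, were highest in very low replicate 2, at 21.9 and 31.2 CPM against 1.12 to 10.2 and 2.49 to 13.4 CPM in the other 11 libraries. Their slopes of -0.70 and -0.53 did not pass (edgeR adjusted p = 0.118 and 0.112).

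None of the 3 costimulatory genes passed. CD86, the costimulatory ligand carried by resting antigen-presenting cells, had 14.2 ± 5.09, 17.8 ± 11.03, 5.02 ± 1.80 and 4.82 ± 1.43 CPM (SD, n = 3) and a slope of -0.67 ± 0.21 (edgeR adjusted p = 0.0676). CD80, its inducible relative, was sparse, with 0.707, 10.6 and 1.56 CPM in the very low libraries and 0.51 to 3.84 CPM in the other classes (slope -0.84, edgeR adjusted p = 0.0638). CD83, a marker of mature dendritic cells, had 9.90, 36.7 and 5.98 CPM in the very low, 25.7, 20.6 and 13.2 in the low, 7.78, 2.42 and 7.502 in the high and 14.6, 2.62 and 1.32 in the very high libraries (slope -0.63, edgeR adjusted p = 0.181). In CD80 and CD83 the lower and upper classes overlapped.

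The 3 steps between neighbouring classes were unequal. From very low to low the median log2 fold change of the 28 genes was 0.05 (all tested genes -0.06), with 16 positive and 12 negative values and no gene without overlap between the classes, where 4.63% of all tested genes were lower and 5.11% higher without overlap. This median rested on single libraries: it was 0.63 without very low replicate 2 (5 negative values), -0.18 without very low replicate 1 and -0.19 without very low replicate 3 (20 negative values each), and -0.30 without low replicate 3. From low to high the median was -1.70 (all genes -0.02), 27 of 28 values were negative, and 17 genes were lower without overlap against 9.68% of all tested genes. From high to very high the median was -0.23 (all genes -0.01), and 2 genes were lower without overlap against 3.89%. Of all tested genes 55.2%, 51.9% and 52.3% had negative values in the 3 steps in that order. Without 1 library the low to high median ran from -1.85 to -1.24 and the high to very high median from -0.45 to 0.03, the latter without high replicate 1. In none of these steps did a member pass in edgeR, nor did any of the 10959 genes (0%). At an unadjusted p under 0.05 there were 0, 20 and 0 members in the 3 steps, of 1269, 1125 and 87 genes in all, and DESeq2 called 0, 8 and 0 members against 2.67%, 2.20% and 0% of all genes.

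From low to high progesterone the smallest p among the 28 belonged to GAPT, CD68 and CSF1R, with log2 fold changes of -2.69 ± 0.62, -1.72 ± 0.40 and -2.03 ± 0.53 (SE), none past the threshold (edgeR adjusted p = 0.351 for each). From very low to low they belonged to ITGAM (-1.03 ± 0.50, edgeR adjusted p = 0.460), CD14 (-1.38 ± 0.74, 0.498) and CYBB (-0.87 ± 0.53, 0.544). Without very low replicate 2 ITGAM was at -0.58, and CD14 and CYBB turned to 0.27 and 0.17. ITGAM was at -0.67 without low replicate 2. From high to very high they belonged to CD68 (-0.85 ± 0.39), FCGR2B (-1.32 ± 0.68) and LY86 (1.04 ± 0.74), with an edgeR adjusted p of 0.9999 each. FCGR2B was at -0.83 without high replicate 3, and LY86 was at 1.98 without high replicate 1, 0.60 without high replicate 2 and 0.61 without very high replicate 3.

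**Figure D4:**
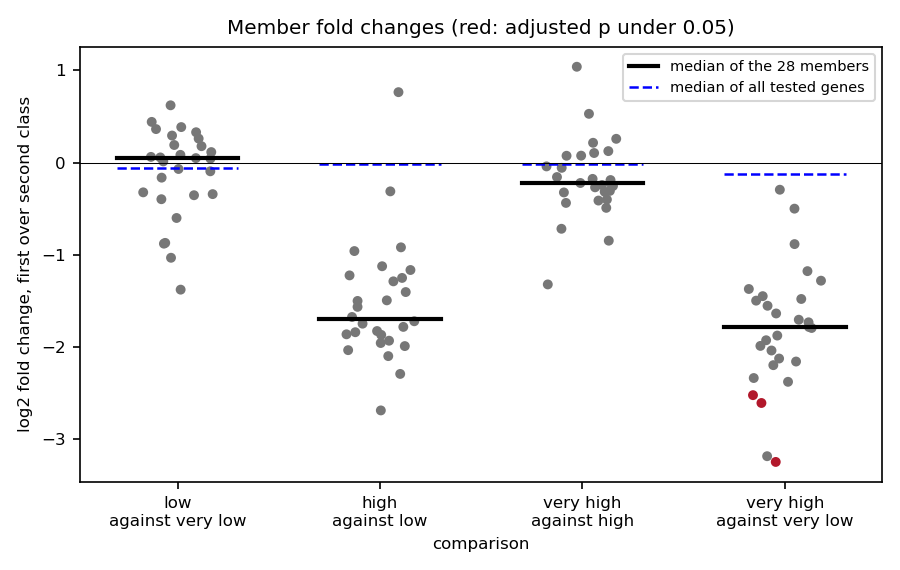
Log2 fold change of each of the 28 genes (dots, spread sideways for sight) in the 3 steps between neighbouring classes and between the extreme classes, with the median of the 28 (black) and of all tested genes (blue dashed). The low to high step has a median of -1.70, the steps on either side have medians of 0.05 and -0.23, and the 3 red dots are genes past an adjusted p of 0.05.

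Between the extreme classes CD68, ITGAM and PILRA were lower in the very high class, 3 of 28 against 0.411% of all tested genes, and none was higher (1.11% of all). The log2 fold changes were -2.52 ± 0.41, -2.61 ± 0.53 and -3.25 ± 0.67 (SE), with edgeR adjusted p of 0.0333, 0.0415 and 0.0424. All 28 fold changes were negative, as were 57.6% of those of all tested genes. The median was -1.79 against -0.12 for all tested genes, and 17 genes were lower without overlap against 12.2% of all. CD14 (-3.18) and CSF1R (-2.12) had an edgeR adjusted p of 0.0651 each. The count of 3 (1.52% of all genes in either direction) was 6 without very low replicate 1 (5.79%), 5 without low replicate 3 (3.08%), 1 without low replicate 1 or high replicate 1 or 2 (0.468% to 1.05%), and 0 without very low replicate 2, high replicate 3 or any of the 3 very high libraries (0% to 0.153%). The median ran from -2.12 to -1.10 in the 12 such fits.

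Scoring the 2 lower classes as 1 step and the 2 upper classes as the next, a score chosen after the values were seen, gave 19 members that fell and none that rose, where 4.66% of all tested genes fell. Of the 12 genes of the trend 11 were among them, all but VSIG4. The median difference of the 28 genes was -1.81 log2 units. The steepest were PILRA (-2.64 ± 0.47), CD14 (-2.52 ± 0.58) and GAPT (-2.23 ± 0.41), and the 19 had edgeR adjusted p of 0.0234 to 0.0427. Since the score was drawn from these same values, its count and adjusted p are descriptive only. FCGR2B was the 1 gene with a positive difference (0.28 ± 0.51, edgeR adjusted p = 0.771).

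Within the lower classes 2 libraries held most of the peaks. How many of all tested genes had their highest or lowest level in each library was not computed. The counts here therefore describe the members only. Very low replicate 2 was the highest of the 12 libraries for 14 genes, SPI1, ITGAM, ITGB2, CD14, PILRA, FGR, CYBB, NCF1, NCF4, CTSS, SLC11A1, HK3, CD80 and CD83. Low replicate 3 was the highest for 11 others, CSF1R, CD68, LAPTM5, CD163, LY86, TYROBP, FCER1G, TREM2, GAPT, CYBA and CD86. Of the first set NCF1, FGR and HK3, among others, are also genes of neutrophils, and the same library had the most neutrophil marker RNA, led by S100A12, whose class mean was 792 CPM in the very low class. The neutrophil sum was 609 to 945 CPM in the low class, and 96.7 and 105.3 CPM in very low replicates 1 and 3. None of the 7 neutrophil markers was at 0 as a class mean, and their part in the levels of the shared members was not tested. The lowest library of a gene was in an upper class for 25 of the 28, most often very high replicate 3, with 12 genes.

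Relative to the mean log2 CPM of the 28 genes in the same library, some members held their place and others shifted. CTSS stayed between 3.79 and 3.86 log2 units above that mean in the 4 class means. ITGAM stood at -0.97 in the very low class and at -1.97, -1.60 and -1.80 in the other classes in order. CD68 stood at 1.56, 1.57 and 1.36 and then at 0.70 in the very high class. FCGR2B went from -1.18 and -0.76 to 1.15 and 0.32, and CYBA from 2.33 in the very low to 3.36 in the very high class. These are descriptions with no test.

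T and NK cell and pan-leukocyte markers also lay mostly lower in the upper classes. Over the 4 classes 5 of 16 T and NK cell markers, 2 of 7 pan-leukocyte markers and 1 of 7 neutrophil markers fell. None of them rose, and 4.46% of all tested genes fell by the same test. The medians in that order were -0.69, -0.62 and -1.43 log2 units per class. In the very low class only the neutrophil sum of replicate 2 (3453 CPM) lay above those of the high class, 77.2 to 143 CPM. None of 7 B and plasma cell markers or 4 mast cell markers passed (medians -0.06 and -0.15). The summed T and NK cell level was 275 to 630.1 CPM in the very low, 213 to 637 in the low, 109 to 274 in the high and 104 to 176 in the very high class. PTPRC (CD45), carried by all white blood cells, was chosen after its values were seen and had class means of 129, 135, 39.9 and 45.8 CPM (slope -0.62 ± 0.20, edgeR adjusted p = 0.0685).

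The smooth muscle score was higher in each upper-class library than in the 3 low ones, and its part in the fall was not tested beyond the following fits. When the smooth muscle score was added to the model, 7 of the 12 genes still fell (ITGAM, PILRA, CD68, CD14, CSF1R, VSIG4 and MSR1) and the median slope was -0.47, while the share of all genes past the threshold went from 7.48% to 14.5%. With smooth muscle and epithelial scores together no member passed, 6 had an unadjusted p under 0.05, and the median slope was -0.34 with 26 of 28 negative. In that fit 43 of all genes passed (0.392%), and the median of the low to high step turned from -1.70 to 0.28. The smooth muscle score was 4.53 to 5.66 in the low and 8.97 to 10.2 in the high class. The 2 classes did not overlap in that score, which limits both fits for that step. With the smooth muscle score alone the median of the low to high step was -1.2, with 21 of 28 values negative, and no member passed. CD68 was then at -1.19 ± 0.504 and CSF1R at -1.68 ± 0.714 (SE). With both scores the standard errors were large, 1.37 for CD68 and 1.69 for CSF1R. Why the median changed sign only with the epithelial score added was not tested.

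**Figure D5:**
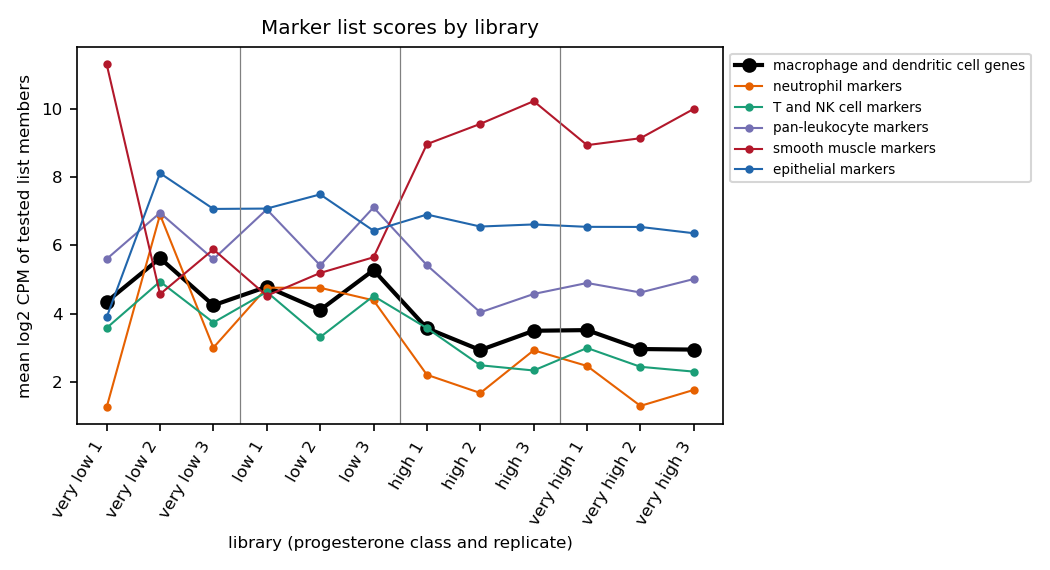
Mean log2 CPM of the 28 macrophage and dendritic cell genes (black) and of 5 marker lists for other cells in each library. The black line lies between 4.11 and 5.63 in the 6 lower-class libraries and between 2.94 and 3.58 in the 6 upper-class ones, the smooth muscle score is high in the latter and in very low replicate 1, and the neutrophil score peaks in very low replicate 2.

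Genes that feed and steer these cells were taken from lists drawn up by function, with earlier results of these data known. Over the 4 classes 4.46% of all tested genes fell, the share to set beside each list. Of the 18 genes taken by rule from these lists for passing the trend test, CADM1 alone passed without very low replicate 2 and none passed without very high replicate 3. In the growth factor axis 2 of 5 tested non-members fell. They were CSF2RB, the shared beta chain of the receptors for GM-CSF and IL-3, with class means of 19.6, 6.11, 2.38 and 0.718 CPM (slope -1.55 ± 0.35, edgeR adjusted p = 0.0328, and a slope of -0.96 without very low replicate 2), and the granulocyte growth factor CSF3 (slope -2.41, edgeR adjusted p = 0.0372). The 2 ligands of CSF1R did not pass. CSF1 had 8.49 ± 6.85, 7.06 ± 7.54, 10.7 ± 2.80 and 4.99 ± 0.709 CPM (SD, n = 3, slope -0.14, edgeR adjusted p = 0.752), and IL34 had 12.7 ± 2.77, 13.0 ± 6.03, 8.42 ± 1.23 and 9.09 ± 3.77 CPM (slope -0.21, edgeR adjusted p = 0.307). Both ligands were chosen for mention after their values were seen.

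Of 12 chemokines and receptors that draw monocytes 3 fell and none rose. CCR1 went from 30.1 CPM in the very low class to 2.21 CPM in the very high class (slope -1.29 ± 0.31, edgeR adjusted p = 0.0359), and the fractalkine receptor CX3CR1 from 40.4 to 15.7 CPM (slope -0.49 ± 0.12, 0.0387). Of 9 myeloid transcription factors beside SPI1 3 fell. RUNX1 had class means of 20.6, 11.2, 3.18 and 1.57 CPM (slope -1.29 ± 0.31, edgeR adjusted p = 0.0358). TFEC, a relative of the lysosomal regulator TFEB, had 13.3, 13.9, 2.40 and 1.33 CPM (slope -1.27 ± 0.31, edgeR adjusted p = 0.0367).

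Among 13 other genes of ITAM signalling 3 fell. The fungal glucan receptor CLEC7A (dectin-1) had a slope of -0.89 ± 0.21 (edgeR adjusted p = 0.0341). SIRPA, the receptor for the signal CD47 that restrains engulfment, had class means of 125, 63.2, 27.7 and 21.0 CPM (slope -0.89 ± 0.21, edgeR adjusted p = 0.0341). Its slope was -0.47 without very low replicate 2. None of 4 further Fc gamma receptor genes and none of 4 further oxidase genes passed (median slopes -0.63 and -0.37). Of 7 other genes of integrins and the leukocyte cytoskeleton LCP1 (L-plastin) fell, from 128 to 44.1 CPM (slope -0.62 ± 0.16, edgeR adjusted p = 0.0432).

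Antigen presentation through MHC class II had the largest share of genes past the threshold among the pathway lists, 5 of 8, all falling. BOLA-DRB3, a class II beta chain, had class means of 581 ± 253, 413 ± 196, 169 ± 72.4 and 133 ± 45.3 CPM (SD, n = 3) and a slope of -0.76 ± 0.15 (edgeR adjusted p = 0.0228). Class II genes resemble each other and vary between animals, so their counts are uncertain. RFX5, a subunit of the factor that switches class II genes on, had 24.4, 17.1, 13.9 and 11.2 CPM (slope -0.37 ± 0.09, edgeR adjusted p = 0.0353). Of 11 dendritic cell genes other than members 2 fell. IRF8, needed for cross-presenting dendritic cells, had 49.2 ± 22.3, 63.7 ± 41.7, 14.5 ± 4.80 and 10.2 ± 4.71 CPM (SD, n = 3, slope -0.93 ± 0.24, edgeR adjusted p = 0.0418). CADM1, an adhesion molecule of the same cells and of epithelium, had 16.1, 10.3, 5.80 and 4.16 CPM (slope -0.67 ± 0.12, edgeR adjusted p = 0.0216). ZBTB46, which marks classical dendritic cells, was chosen after its values were seen and had 1.40, 0.942, 1.01 and 1.56 CPM (slope 0.09, edgeR adjusted p = 0.819).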

How the data were processed

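Polyadenylated RNA of 12 endometrial biopsies, 3 in each of 4 progesterone classes, was sequenced as 1 pool, per the labels. The authors deposited raw counts per gene symbol, 1 column per library. FastQC 0.11.2 and Trimmomatic 0.32 and the builds UMD3.1 and bosTau8 are named in the submitters' processing notes. Which aligner, counter, strand setting and annotation were used is not given in the sources used here, so reads of overlapping genes cannot be told apart.

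With edgeR 4.0.16 (R 4.3.3) genes were filtered by filterByExpr (count minimum 10), which left 10959 of 13930. Libraries were scaled by TMM and a quasi-likelihood model was fitted to all 12 libraries, with class means for pairs and class rank (1 to 4) for the trend. P-values were adjusted by Benjamini-Hochberg over the tested genes (threshold 0.05). Standard errors are the log2 change divided by the root of the F value, and log2 CPM used a prior count of 2. Totals of 3772564 to 8379489 set the counting precision. No replicate pair agreed within sampling noise (chi-square over its degrees of freedom 22.1 to 288). On simulated counts of 10879 genes, changes were placed only in genes above the median level. There the very high against very low test recovered 73% of 4-fold and 12% of 2-fold changes. The trend test (10860 genes) recovered 92% of 2-fold and 100% of 4-fold changes, here set per class step. Shallower slopes were not simulated. Recovery for sparser genes was not measured. Alternatives were DESeq2 1.42.0, limma-voom (limma 3.58.1), other scaling, no filter, thinning, a replicate block, tissue scores as covariates and leaving out each library.

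Members and lists were chosen with earlier results of these data known. Full statistics were given for members past the threshold (up to 15 in the trend and 8 in a pair, by p), for the 3 smallest p where fewer than 3 passed, and for up to 2 genes per pathway list past the trend threshold, of which 1 is not reported here. Of 36 symbols, 35 were found in RefSeq's gene list for ARS-UCD2.0, used for names and overlaps; the tested members LAPTM5, VSIG4, FCGR2B, PILRA, CYBB, HK3 and CD86 overlap another gene there.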

Additional observations from a re-analysis of the deposited data

How the results depend on the processing

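The trend count of 12 members (7.48% of all genes) became 21 (18.3%) with DESeq2, 5 (3.28%) with limma-voom, 7 (14.5%) given the smooth muscle score, 0 (0.392%) with both tissue scores, 0 (0.037%) in the low, high and very high classes only and 19 (6.58%) with the 2-step score chosen after seeing the data. Leaving out 1 library gave 0 to 19. The count of 3 (1.52%) between the extreme classes became 18 (13.8%) with DESeq2, 0 (1 of all genes) with limma-voom, 0 (0%) with both tissue scores, 0 (0%) in a fit of these 6 libraries alone and 0 to 6 without 1 library. From low to high the count of 0 was 8 (2.20%) with DESeq2 and 0 to 1 without 1 library. Of 18 same-numbered replicate pairs 3 correlated above 0.1 (range -0.30 to 0.29), and 4 of 12 libraries correlated best with their own number. With 3 libraries per class this cannot settle if the replicate numbers pair the samples. With the replicate block the trend count was 3 (1.64%) and the extreme count 0 (0%). Other scaling, no filter on low counts and thinning kept all 5 counts within 1.5 times.

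The 12 trend members kept their direction in all 252 such fits and passed in 130, and the 18 pathway genes kept theirs in all 378 and passed in 178. Without 1 library ITGAM and PILRA passed in 11 of 12 fits, CD68 in 10, CD14 in 9, and MSR1 in 1. SPI1, CSF1R, CTSS and TYROBP passed in 5 each, TREM2 in 4, VSIG4 in 3 and FCER1G in 2. From low to high the sign turned for CD68 (0.63 ± 1.37, SE) and CSF1R (2.68 ± 1.69) with both tissue scores, with large standard errors. From very low to low CD14 ran from -1.81 to 0.27 and CYBB from -1.21 to 0.17 without 1 library. The cause was not tested. Depth limits most the genes of fewest counts, such as CD80 and PILRA.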

Other observations

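Genes of digestion, iron and complement that work in macrophages but also in other cells moved in part. Of 14 lysosomal genes beside CTSS 3 fell over the 4 classes and none rose (median slope -0.31). Of all tested genes 4.46% fell, which is also the share for the lists that follow. NPC2, which exports cholesterol from lysosomes, had class means of 519 ± 257, 408 ± 80.8, 243 ± 25.7 and 208 ± 16.3 CPM (SD, n = 3, slope -0.47 ± 0.09, edgeR adjusted p = 0.0246). The lysosomal membrane proteins LAMP1 and LAMP2, chosen after their values were seen, had slopes of -0.08 and -0.05 and did not pass.

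Of 6 iron genes beside SLC11A1 2 fell. The plasma ferroxidase CP went from 97.0 CPM in the very low class to 6.99 CPM in the very high class (slope -1.32 ± 0.34, edgeR adjusted p = 0.0394), and the transferrin receptor TFRC from 19.2 to 6.12 CPM (slope -0.50 ± 0.14, edgeR adjusted p = 0.0478). Without very low replicate 2 the slopes were -0.68 for CP and -0.30 for TFRC, and neither passed. Of 4 tested genes at the start of the complement cascade C2 fell, with class means of 172 ± 227, 111 ± 29.8, 17.5 ± 11.5 and 15.7 ± 14.2 CPM (SD, n = 3, slope -1.29 ± 0.31, edgeR adjusted p = 0.0366). Among 9 scavenger and efferocytosis genes that were not members none passed (median slope -0.15). Of these TIMD4, a receptor for dying cells that was chosen after its values were seen, ran the other way, with 23.1 ± 2.55, 30.4 ± 25.6, 45.6 ± 11.9 and 62.3 ± 51.1 CPM (SD, n = 3, slope 0.49 ± 0.24, edgeR adjusted p = 0.205).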
